A study of Mus musculus with 4 samples.

Results

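The kinesin motor family was taken as the protein-coding genes whose symbol is Kif followed by a number, or by a letter and a number, in a table of read counts from the mouse hippocampus. The rule found 41 genes among 17823 protein-coding genes and 29300 genes in all: 37 with a plain Kif number and 4 with a Kifc name. Every one of the 41 carried the Pfam kinesin motor domain in the table's annotation, and 4 other protein-coding genes with that domain (Stard9, E230025N22Rik, Cenpe and Gm4869) lay outside the naming rule. By what they are known to do, 16 were placed with transport along axons and dendrites, 13 with mitosis and 6 with cilia and centrioles, and 6 were left over.

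Hippocampal RNA came from male C57BL/6 mice, 7 to 8 months of age, 2 per group, killed on day 1 after the operation. Control mice had anesthesia without a fracture, surgery mice had a tibial fracture under the same anesthesia, and the study's methods give isoflurane and tramadol to both groups. The fracture model serves for perioperative neurocognitive disorder (PND), a group of cognitive disorders after surgery that takes in delirium and cognitive dysfunction. The question put to the kinesins was whether their RNA differed between surgery and control mice, with transport and mitotic kinesins kept apart. Each library is 1 mouse, so the p-values rest on 2 mice per group. The test steadies each gene's spread between mice with a trend over all genes tested. The standard errors (SE) given come from the same test and are not a spread between mice. In whole tissue, fewer cells of a type and less RNA per cell cannot be told apart.

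Kinesins are motors that hydrolyze ATP to walk along microtubules, most of them toward the plus end, away from the cell body in an axon. In neurons they carry synaptic vesicle precursors, mitochondria, receptors and RNA granules over long distances, and dynein brings cargo back. In dividing cells other family members build the spindle, move chromosomes and part the daughter cells, so that an adult brain, with few dividing cells, holds little of their RNA.

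Mitotic and transport kinesins were set side by side in the sequence around their transcription starts. RefSeq windows on GRCm38.p6, reaching from 250 bases before to 50 bases after the start, were found for 32 of the 41 genes and searched on both strands. The cell cycle genes homology region (CHR) TTTGAA, or TTCAAA on the other strand, a motif bound in many mitotic genes, stood in 11 of 12 mitotic kinesins and in 3 of the other 20, against 20.2% of 27025 genes with a window. The cyclic AMP response element (CRE) TGACGTCA, which reads the same on both strands, stood in 2 of 11 transport kinesins, in 1 of 12 mitotic kinesins (Kif18a) and in 2.03% of all genes. The palindromic NRF-1 consensus, searched as a further motif, was found in 0 of the 32 kinesins and in 1.07% of all genes. The motif matches are descriptions of letters in these windows and say nothing of binding.

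Windows are shown for 3 of the mitotic kinesins with a CHR and for 2 transport kinesins with a CRE, as examples of where the motif lies. Before any correction the 3 with a CHR had positive log2 fold changes of surgery over control mice, as had Kif11, Kif15 and Kif4. Those of Kifc1 and Kifc5b, which also have a CHR, were negative. No relation between motif and RNA level was tested. Each window runs 5′ to 3′ on the gene's strand, from 250 bases before the start to 30 bases into the transcript, with the motif in capitals. Kif22 (chr7:127042391-127042670, minus strand) has a CHR 215 and another 17 bases upstream of the start. In Kif23 (chr9:61946770-61947049, minus strand) it begins 2 bases downstream. Kif20b (chr19:34922108-34922387, plus strand) has a pair of adjoining copies 7 and 13 bases downstream. The CRE begins 86 bases upstream of the start in Kif17 (chr4:138262001-138262280, plus strand) and 26 bases upstream in Kif5c (chr2:49619036-49619315, plus strand). The Kif17 start used by RefSeq lies inside the span given for the gene in the deposited table.
Kif22: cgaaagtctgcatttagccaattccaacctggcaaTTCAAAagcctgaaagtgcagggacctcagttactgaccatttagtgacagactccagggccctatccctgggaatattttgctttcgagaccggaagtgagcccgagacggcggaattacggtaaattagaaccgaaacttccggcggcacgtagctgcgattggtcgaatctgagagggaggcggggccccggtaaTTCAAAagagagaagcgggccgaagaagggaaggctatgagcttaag
Kif23: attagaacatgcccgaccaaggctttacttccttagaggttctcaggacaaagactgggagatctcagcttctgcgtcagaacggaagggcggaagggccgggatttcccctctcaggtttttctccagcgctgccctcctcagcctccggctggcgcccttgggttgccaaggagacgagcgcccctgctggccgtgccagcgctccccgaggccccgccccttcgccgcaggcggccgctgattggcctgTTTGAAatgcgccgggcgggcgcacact
Kif20b: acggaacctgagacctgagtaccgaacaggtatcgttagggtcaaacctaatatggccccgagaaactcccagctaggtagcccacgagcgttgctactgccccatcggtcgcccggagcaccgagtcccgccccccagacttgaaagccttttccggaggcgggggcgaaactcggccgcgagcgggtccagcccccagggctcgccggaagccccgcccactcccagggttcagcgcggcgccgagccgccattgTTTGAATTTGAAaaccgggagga
Kif17: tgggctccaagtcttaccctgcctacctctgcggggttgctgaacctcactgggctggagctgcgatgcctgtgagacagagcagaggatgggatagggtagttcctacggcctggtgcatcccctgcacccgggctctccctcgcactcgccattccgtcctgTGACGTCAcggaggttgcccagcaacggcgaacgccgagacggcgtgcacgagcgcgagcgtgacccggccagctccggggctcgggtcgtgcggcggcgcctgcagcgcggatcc
Kif5c: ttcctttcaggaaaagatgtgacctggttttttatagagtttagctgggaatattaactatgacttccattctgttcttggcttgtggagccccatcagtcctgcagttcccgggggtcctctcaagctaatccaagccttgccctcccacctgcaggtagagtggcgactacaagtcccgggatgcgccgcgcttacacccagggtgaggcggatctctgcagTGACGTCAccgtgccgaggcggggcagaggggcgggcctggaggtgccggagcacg

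Of the 41 kinesins, 36 had enough reads to be tested among 17144 genes. In surgery mice 2 kinesins rose, Kif5b and Kif2a, and 7 fell, Kif1a, Kif1c, Kif3c, Kif5a, Kif17, Kifc2 and Kifc3 (edgeR quasi-likelihood test, adjusted p under 0.05). Over all genes tested, 13.1% rose and 12.8% fell by the same rule, so changes in either direction were common in this comparison. With the study's fold thresholds added, a fold of at least 1.5 or at most 0.67, the 2 that rose remained and 0 of the 7 that fell did, against 6.75% and 2.25% of all genes. Both surgery mice lay above both control mice for 12 of the 36 kinesins, where 33.2% of all genes did, and below them for 14, where 32.2% of all genes did.

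The counts moved with a joint correction for GC content and length and with single mice. After trends of each library with transcript GC content and length were removed, 0 kinesins rose and 0 fell by edgeR, with 3 at an unadjusted p under 0.05, while 0.584% of all genes rose and 1.10% fell. By DESeq2 without that correction 2 kinesins rose and 8 fell, against 10.7% and 12.3% of all genes. Scaled by library totals alone, 5 rose and 6 fell, against 15.5% and 10.6%. Without control mouse 2 the number that fell was 2 (6.64% of all genes fell in that fit), and without surgery mouse 2 it was 3 (7.62% of all genes). Kif5b and Kif2a rose, and Kif1a and Kif3c fell, whichever mouse was left out.

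**Figure D1:**
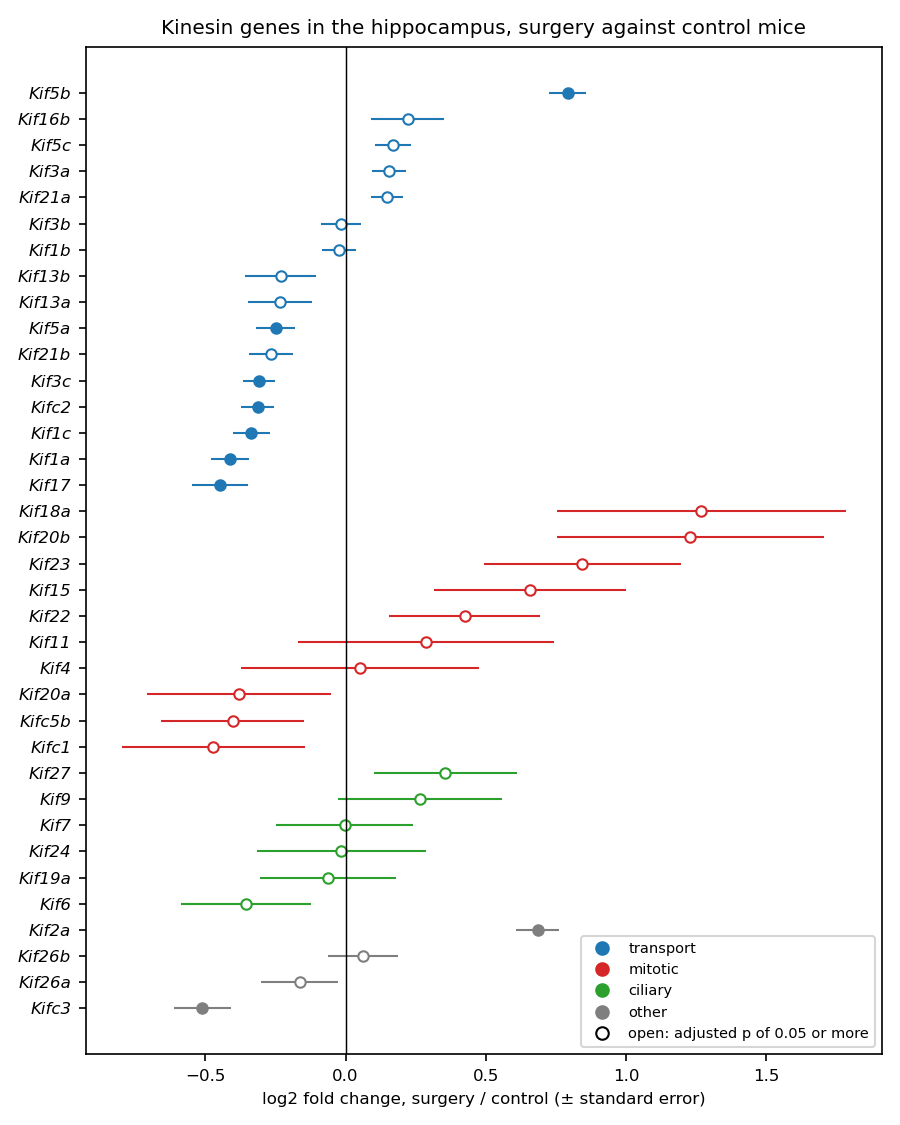
Log2 fold change of surgery over control mice for the 36 tested kinesin genes, with bars of 1 standard error and 2 mice per group, grouped by class; filled points passed an adjusted p of 0.05 in edgeR. Kif5b (0.79) and Kif2a (0.69) are the filled points on the right, the filled points on the left run from -0.51 for Kifc3 to -0.25 for Kif5a, and all 10 mitotic kinesins are open with long bars.

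Among the transport kinesins, all 16 were tested, 1 rose and 6 fell (6.25% and 37.5%, beside 13.1% and 12.8% of all genes). Without control mouse 2 the number that fell was 2, and without surgery mouse 2 it was 3, with a median of -0.080. Their median log2 fold change was -0.23, against 0.01 over all genes tested, and -0.08 once the GC and length trends were removed. Their summed level in CPM, the read count scaled to the size of the library, was 8010 and 8161 in control mice. It was 7311 and 7025 in the surgery mice, lower in both. Kif5a and Kif1a, which held the most CPM, fell from means of 2927 and 1684 CPM to 2462 and 1266 CPM. Both surgery mice lay above both control mice for 5 of the 16 and below for 8, beside 33.2% and 32.2% of all genes. These kinesins spanned a wide range of abundance. Per kilobase of transcript, Kif5a stood highest in control mice at 418.8 ± 6.93 CPM per kb (SD, n = 2), followed by Kif1a at 180.5 ± 12.6 and Kifc2 at 165.8 ± 5.07, a pair whose difference was smaller than the sum of their SDs. Kif16b stood lowest at 1.49 ± 0.14 CPM per kb.

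The kinesin-1 heavy chains are the motor subunits of conventional kinesin, which moves mitochondria, vesicles and RNA granules. Kif5b (ENSMUSG00000006740, mm10 chromosome 18, 6201002 to 6242174, minus strand), the form made in most tissues, had 154 and 141 CPM in control mice and 254 and 257 CPM in the surgery mice. Both surgery mice stood well above both control mice. The gene rose 1.73-fold (log2 fold change 0.79, SE 0.07, adjusted p = 0.0042, edgeR). With the GC and length trends removed the log2 fold change of Kif5b was 0.33 (SE 0.07, adjusted p = 0.0612, edgeR), the lowest adjusted p of any kinesin in that fit.

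Kif5a (ENSMUSG00000074657, chromosome 10, 127225696 to 127263348, minus strand), a neuronal form, had 2962 and 2893 CPM in control mice and 2570 and 2355 CPM in surgery mice. The groups did not overlap, and Kif5a fell to 0.84 of the control level (log2 fold change -0.25, SE 0.07, adjusted p = 0.0404, edgeR). This call was lost without control mouse 1 (adjusted p = 0.139), control mouse 2 (0.116) or surgery mouse 2 (0.163) in edgeR, and with the trends removed (log2 fold change -0.08, adjusted p = 0.629). Kif5c, the other neuronal form, whose promoter is shown above, had 746 and 708 CPM in control mice and 846 and 790 CPM in surgery mice. Its surgery mice were above its control mice, but the difference did not pass (log2 fold change 0.17, SE 0.06, adjusted p = 0.0981, edgeR).

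Taken per kilobase, Kif5b made up 3.51% and 3.33% of the 3 heavy chains in control mice and 6.14% and 6.70% in the surgery mice. The share of Kif5a was 77.4% and 78.0% in control mice and 71.0% and 70.2% in surgery mice. Kif5c held 19.1% and 18.7%, then 22.9% and 23.1%. For each of the 3 chains the shares of the groups did not overlap, with Kif5a the main chain in all 4 mice. The shares are parts of one whole, so they are not 3 separate results. By level, both surgery mice lay above both control mice for 33.2% of all genes and below for 32.2%. The shares come from levels without the GC and length correction and were not tested. With the trends removed the log2 fold changes of Kif5a, Kif5b and Kif5c were -0.08, 0.33 and 0.11, and none passed in edgeR.

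Kinesin-2 motors join Kif3a with Kif3b or Kif3c, and a further member, Kif17, works as a homodimer that carries NMDA receptor subunits into dendrites. Kif3c (ENSMUSG00000020668, chromosome 12, 3365132 to 3406494, plus strand) had 190 and 188 CPM in control mice and 152 and 153 CPM in surgery mice. The mice of each group were nearly equal, and Kif3c fell to 0.81 of control (log2 fold change -0.31, SE 0.06, adjusted p = 0.0116, edgeR). With the trends removed its log2 fold change was -0.24 (adjusted p = 0.104, edgeR). On the opposite strand, 1110002L01Rik overlaps 35.3% of the exon bases of Kif3c, and Gm48512 overlaps its exons too. The use of strand in the counting is not given in the sources used here.

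Kif17 (ENSMUSG00000028758, chromosome 4, 138250435 to 138301967, plus strand) had 36.6 and 35.9 CPM in control mice and 28.3 and 24.8 CPM in surgery mice. It fell to 0.73 of control (log2 fold change -0.45, SE 0.10, adjusted p = 0.0216, edgeR). The call was lost without control mouse 1 (adjusted p = 0.0658), control mouse 2 (0.0652) or surgery mouse 2 (0.0887) in edgeR, and with the trends removed (log2 fold change -0.18, adjusted p = 0.405). For Kif3a the log2 fold change was 0.15 (SE 0.06, adjusted p = 0.103, edgeR). For Kif3b it was -0.02 (SE 0.07, adjusted p = 0.892, edgeR), with a sign that turned to 0.03 under scaling by library totals. With the trends removed Kif3a stood at 0.04 (adjusted p = 0.774, edgeR) and Kif3b at -0.07 (adjusted p = 0.619). Per kilobase, Kif3a was 45.5% and 45.4% of the 3 Kif3 subunits in control mice and 51.3% and 51.6% in surgery mice. Kif3c was 34.5% and 33.4%, then 27.6% and 28.0%, while the shares of Kif3b overlapped between the groups. These shares come from levels without the GC and length correction and were not tested.

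The kinesin-3 motors are fast carriers of synaptic and other vesicles. Kif1a (ENSMUSG00000014602, chromosome 1, 93015464 to 93101951, minus strand), which carries synaptic vesicle precursors and dense core vesicles, had 1601 and 1767 CPM in control mice and 1269 and 1263 CPM in the surgery mice. Kif1a fell to 0.75 of control (log2 fold change -0.41, SE 0.07, adjusted p = 0.00845, edgeR). After the correction, its log2 fold change was -0.19 (SE 0.07, adjusted p = 0.176, edgeR).

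Kif1c (ENSMUSG00000020821, chromosome 11, 70700548 to 70731964, plus strand), a vesicle motor found in many tissues, had 182 and 194 CPM in control mice and 153 and 145 CPM in surgery mice. It fell to 0.79 of control (log2 fold change -0.34, SE 0.07, adjusted p = 0.0141, edgeR), a call lost without control mouse 2 (adjusted p = 0.0639) or surgery mouse 2 (0.056) and with the trends removed (log2 fold change -0.14, adjusted p = 0.3). Kif1b, with forms that carry mitochondria or synaptic vesicle precursors, overlapped between the groups (log2 fold change -0.02, SE 0.06, adjusted p = 0.799, edgeR). The value of Kif1b was 0.02 under scaling by library totals and -0.14 (adjusted p = 0.276, edgeR) with the trends removed. Per kilobase the share of Kif1a among these 3 motors was 70.4% and 71.1% in control mice and 66.5% in each surgery mouse. That of Kif1b was 19.3% and 18.9%, then 23.2% and 23.7%. The shares come from levels without the GC and length correction and were not tested. With the trends removed the log2 fold changes of Kif1a and Kif1b were close, at -0.19 and -0.14.

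Kifc2 (ENSMUSG00000004187, chromosome 15, 76660641 to 76668196, plus strand), a neuronal motor of the kinesin-14 family, had 638 and 666 CPM in control mice and 512 and 537 CPM in surgery mice. The groups did not overlap. Kifc2 fell to 0.80 of control (log2 fold change -0.31, SE 0.06, adjusted p = 0.0128, edgeR), and without control mouse 2 the call was lost (adjusted p = 0.0613). With the trends removed the log2 fold change of Kifc2 was -0.02 (SE 0.06, adjusted p = 0.912, edgeR).

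The remaining transport kinesins did not pass. Kif21b, of the kinesin-4 family, was nearest, with a log2 fold change of -0.27 (SE 0.08, adjusted p = 0.0507, edgeR), and passed in DESeq2 (adjusted p = 0.0282) and without surgery mouse 1 (0.0272, edgeR). The value of Kif21b was -0.18 (adjusted p = 0.22, edgeR) without surgery mouse 2 and -0.04 (adjusted p = 0.835) with the trends removed. Kif21a, its relative, stood at 0.15 (SE 0.06, adjusted p = 0.109, edgeR), and at -0.03 (adjusted p = 0.814) with the trends removed. The endosome and vesicle motors Kif13a, Kif13b and Kif16b had log2 fold changes of -0.24, -0.23 and 0.22, with SEs of 0.11 to 0.13. Without surgery mouse 1, Kif13a and Kif13b passed as lower (log2 fold changes of -0.40 and -0.41, adjusted p = 0.0417 and 0.0382, edgeR), and without surgery mouse 2 they stood at -0.087 and -0.072. The values of Kif13a, Kif13b and Kif16b were -0.12, -0.20 and 0.036 with the trends removed. Scaled by library totals alone, Kif5c, Kif3a and Kif21a would pass as higher (adjusted p = 0.0439, 0.048 and 0.0473, edgeR) and Kif5a would not (0.0663).

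**Figure D2:**
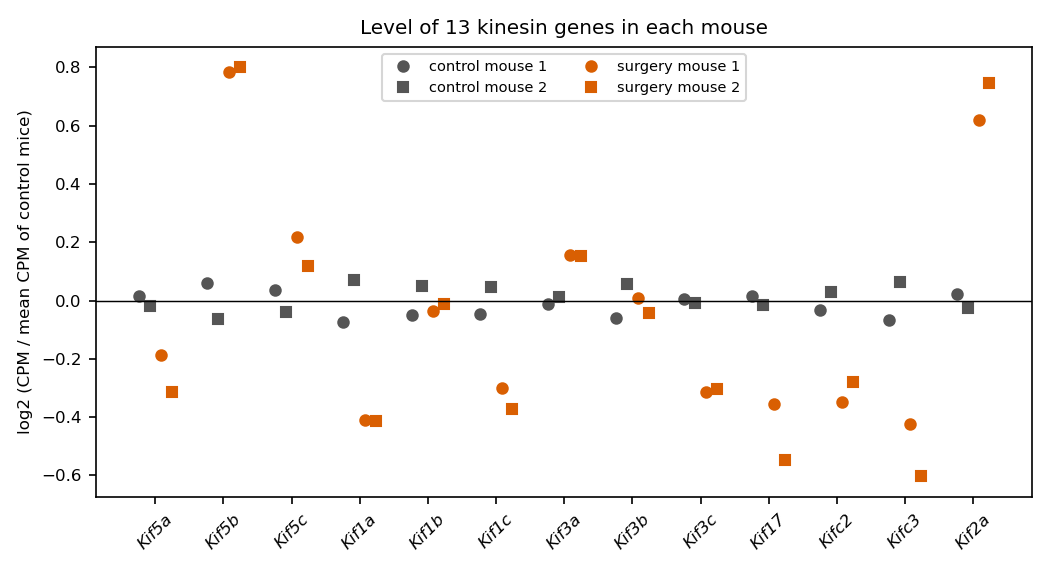
Log2 of each mouse's CPM over the mean CPM of the control mice for 13 kinesin genes; gray points are control mice and orange points surgery mice. The orange points of Kif5b and Kif2a stand above 0.6, those of the 7 genes that fell lie below 0, and those of Kif1b and Kif3b lie among the gray ones.

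Of the 6 kinesins left over, 4 were tested, 1 rose and 1 fell (25.0% each way, beside 13.1% and 12.8% of all genes), and neither passed with the trends removed. Kif2a (ENSMUSG00000021693, chromosome 13, 106958996 to 107022126, minus strand), which takes microtubule ends apart and limits the growth of axon branches, had 58.5 and 56.6 CPM in control mice and 88.4 and 96.6 CPM in surgery mice. It rose 1.61-fold (log2 fold change 0.69, SE 0.08, adjusted p = 0.00446, edgeR). Once the trends were taken out, its log2 fold change was 0.16 (SE 0.07, adjusted p = 0.24, edgeR), and Dimt1, on the opposite strand, overlaps 19.2% of its exon bases.

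Kifc3 (ENSMUSG00000031788, chromosome 8, 95099828 to 95202812, minus strand), a minus-end motor of the kinesin-14 family, had 41.5 and 45.4 CPM in control mice and 32.4 and 28.6 CPM in surgery mice. It fell to 0.70 of control (log2 fold change -0.51, SE 0.10, adjusted p = 0.0146, edgeR). The call was lost without control mouse 2 (adjusted p = 0.0632) or surgery mouse 2 (0.0532) in edgeR and with the trends removed (log2 fold change -0.21, adjusted p = 0.294), and part of its exon sequence is overlapped on the opposite strand. Kif26a and Kif26b, atypical members of the family, had log2 fold changes of -0.16 and 0.06 and did not pass. With the trends removed that of Kif26a turned to 0.17 and that of Kif26b was 0.24. Kif26b turned to -0.02 without control mouse 2 and to -0.09 without surgery mouse 1. Kif12 (3, 0, 3 and 2 reads in control 1, control 2, surgery 1 and surgery 2) and Kif28 (5, 2, 1 and 2 reads) were too low to test.

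The mitotic kinesins had few reads. All 13 together had 401 and 291 reads in control mice and 374 and 363 in the surgery mice, of library totals between 15763432 and 18573386, so the groups overlapped. The 10 tested kinesins gave 0 that rose and 0 that fell in edgeR, beside 13.1% and 12.8% of all genes, with 2 at an unadjusted p under 0.05, Kif18a and Kif20b (DESeq2 0 at an unadjusted p under 0.05, and an adjusted p for only 1 of the 10). Their median log2 fold change was 0.36, with Kif20b, which passed the filter on low counts only through the surgery libraries, among them, and 0.28 over all 13 without a filter. It was 0.04 with the trends removed, 0.016 over the 6 with a mean of at least 1 CPM, 0.83 without control mouse 1 and 0.18 without control mouse 2. Kif18a, with 5 reads in control mouse 2, met the filter in both surgery mice but not in both control mice. Kif14, Kif18b and Kif2c were too low to test, with 0 to 9 reads in a mouse.

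Kif22, which pushes chromosome arms outward on the spindle, had 120 and 76 reads in control mice and 126 and 118 in the surgery mice (log2 fold change 0.43, SE 0.27, adjusted p = 0.291, edgeR). Kif15, a spindle motor that backs up Kif11, had 42 and 25 reads and then 52 and 46 (log2 fold change 0.66, SE 0.34, adjusted p = 0.207, edgeR). For both genes the surgery mice lay closer to control mouse 1 than control mouse 2 did. Without control mouse 1 the log2 fold change was 0.84 for Kif22 and 1.12 for Kif15, and without control mouse 2 it was 0.095 and 0.29. Kif22 stood at 0.48 and Kif15 at 0.20 with the trends removed.

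The minus-end spindle motor Kifc1 had 40 and 35 reads in control mice and 20 and 30 in surgery mice (log2 fold change -0.47, SE 0.33, adjusted p = 0.331, edgeR). Kifc5b, its near copy, had 91 and 72 reads, then 60 and 54 (log2 fold change -0.40, SE 0.25, adjusted p = 0.289, edgeR). With the trends removed Kifc1 stood at -0.22 and Kifc5b at -0.14. Leaving out 1 mouse gave -0.74 to -0.26 for Kifc1 and -0.60 to -0.18 for Kifc5b. The values of this pair are uncertain as single genes, since 26.1% of the 75-nt windows of Kifc1 transcripts and 24.7% of those of Kifc5b also occur in other genes' transcripts, each other's among them. Kif20a, a motor of cytokinesis, had 26 and 29 reads and then 17 and 22 (log2 fold change -0.38, SE 0.33, adjusted p = 0.436, edgeR), and Cdc23 on the opposite strand overlaps 29.3% of its exon bases.

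The largest mitotic values belonged to genes with very few reads. Kif18a, which damps chromosome movements at the spindle equator, had 11 and 5 reads in control mice and 21 and 15 in surgery mice (log2 fold change 1.27, SE 0.52, adjusted p = 0.12, edgeR). Kif20b, which acts at the midbody, had 5 reads in each control mouse and 11 in each surgery mouse (log2 fold change 1.23, SE 0.48, adjusted p = 0.107, edgeR). Kif23, a subunit of the centralspindlin complex of cytokinesis, had 19 and 14 reads and then 27 and 28 (log2 fold change 0.84, SE 0.35, adjusted p = 0.127, edgeR). With the trends removed the log2 fold changes of Kif18a, Kif20b and Kif23 were 0.48, 0.53 and 0.59. That of Kif18a was 1.98 without control mouse 1 and 0.77 without control mouse 2. Kif11 and Kif4 had log2 fold changes of 0.29 and 0.05, which turned to -0.19 and -0.12 with the trends removed, to -0.12 for Kif11 without control mouse 2, and to -0.13 and -0.098 for Kif4 without control mouse 1 and without surgery mouse 2. At this depth a standard error of 0.25 to 0.52 on the log2 scale was left for each mitotic kinesin tested, against 0.06 to 0.13 for the transport kinesins.

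**Figure D3:**
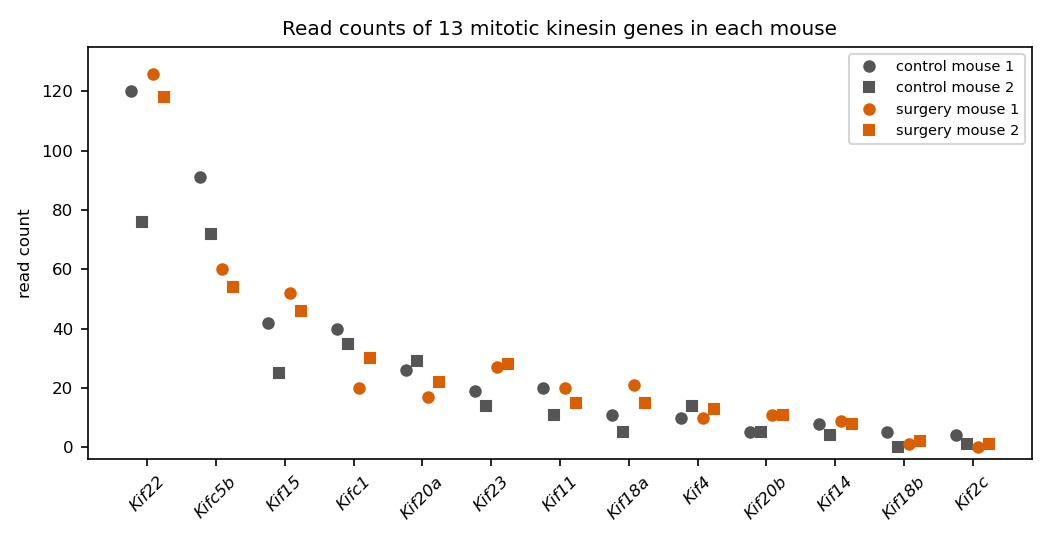
Read counts of the 13 mitotic kinesin genes in each mouse, on a linear axis; gray points are control mice and orange points surgery mice. No mouse has more than 126 reads of any of them, and from Kif23 on to the right all points lie below 30.

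The 6 ciliary and centriolar kinesins were all tested, and 0 rose and 0 fell in edgeR, beside 13.1% and 12.8% of all genes, with 0 at an unadjusted p under 0.05, as in DESeq2. Log2 fold changes ran from -0.36 for Kif6 to 0.36 for Kif27, a relative of Kif7. Kif7, which acts at the cilium tip in hedgehog signaling, and Kif24, which restrains the start of cilia on centrioles, stood at -0.0037 and -0.015. Kif9, a motor of motile cilia, had 98 and 195 reads in control mice and 170 and 154 in the surgery mice (log2 fold change 0.27, SE 0.29, adjusted p = 0.544, edgeR). That value turned to -0.11 without control mouse 1 and was 0.80 (adjusted p = 0.0794, edgeR) without control mouse 2. Control mouse 1, low for Kif9, was also low for 7 choroid plexus markers, with a summed level of 129 CPM against 5443 CPM in control mouse 2 and 2037 and 3464 CPM in the surgery mice. The 8 markers of ependymal cells, the other ciliated cells here, overlapped between the groups at 66.5 to 87.2 CPM, and 0 passed in edgeR or at an unadjusted p under 0.05. The part of these levels in the Kif9 values was not tested. Kif19a, which sets the length of motile cilia, had a log2 fold change of -0.06. In the corrected fit, Kif19a and Kif7 turned to 0.24 and 0.30.

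Across the genes tested, log2 fold change moved with the GC content of transcripts. Spearman's rank correlation between the 2 was -0.64 over 17120 genes, -0.77 over the 36 kinesins, -0.92 over the 16 transport kinesins and -0.84 over the 10 mitotic kinesins. The rank correlation with transcript length was 0.13 over all genes, 0.25 over the kinesins, 0.04 over the transport kinesins and 0.83 over the mitotic kinesins, the last at 0.61 after the correction. These are correlations across genes of the same 4 libraries, not across samples. The 7 kinesins that fell had GC contents of 51.8% to 59.8%, and Kif2a and Kif5b, which rose, had 41.3% and 42.1%. With the trends of each library removed, the rank correlation was -0.04 over all genes, -0.30 over the kinesins, -0.49 over the transport kinesins and -0.52 over the mitotic kinesins. Summed levels of 8 nuclear-retained RNAs (8384 and 8177 CPM in control mice, 9316 and 10483 CPM in surgery mice) were also higher in both surgery mice. Of the 8, beside 13.1% and 12.8% of all genes, 4 rose and 1, Miat, fell (log2 fold change -0.30, adjusted p = 0.0141, edgeR), while Meg3, the most abundant, did not pass (0.12, adjusted p = 0.292), and with the trends removed 1 rose and 0 fell in edgeR, beside 0.584% and 1.10% of all genes, with 4 at an unadjusted p under 0.05. Whether the relation to GC content arose in the tissue or in making the libraries was not tested.

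**Figure D4:**
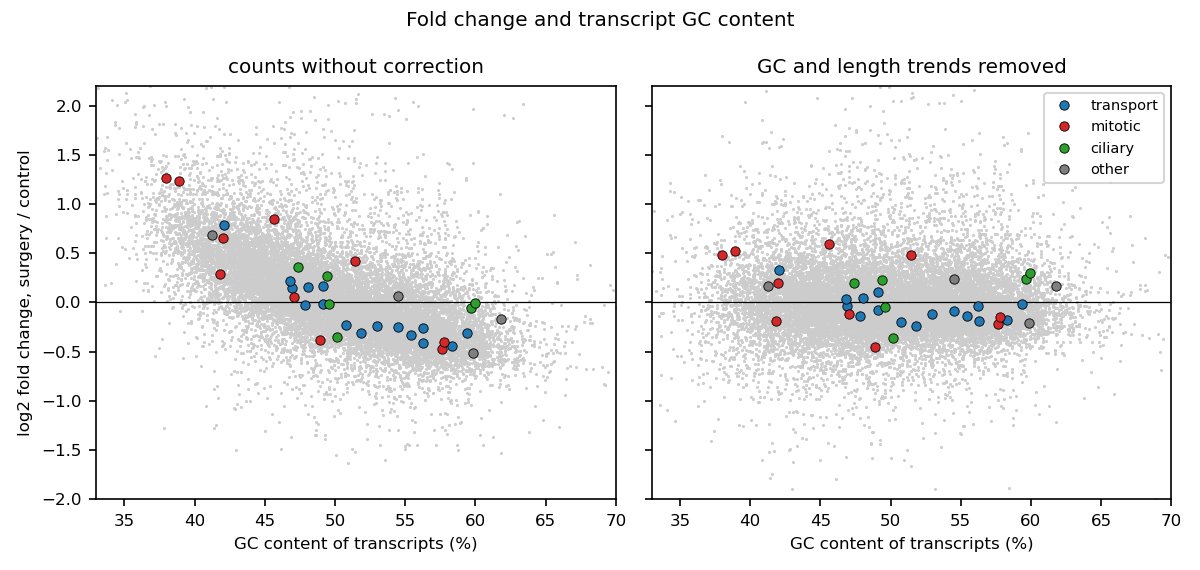
Log2 fold change of surgery over control mice against the GC content of transcripts in percent, for all genes tested (gray) and the kinesins (colored by class), from counts without correction (left) and with each library's GC and length trends removed (right). On the left the kinesins follow the slope of all genes (rank correlation -0.77 over 36 kinesins), and on the right the slope is weaker (-0.30); points outside the plotted ranges of either axis are not drawn.

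Partner genes of the kinesins were read from 4 lists, 76 genes in all, of which 70 were tested. Of these 11 rose and 17 fell (15.7% and 24.3%, beside 13.1% and 12.8% of all genes), and with the GC and length trends removed 0 rose and 1 was lower (beside 0.584% and 1.10% of all genes), with 23 at an unadjusted p under 0.05 in edgeR. In the uncorrected fit without control mouse 2, 6 rose and 11 fell, where 6.88% and 6.64% of all genes did. The gene that was lower after the correction was the dynein regulator Pafah1b1, with a log2 fold change of -0.41 (adjusted p = 0.0383, edgeR) after the correction and 0.09 (adjusted p = 0.344) before it, so its direction turned. The kinesin-1 light chains, which tie Kif5 motors to cargo, gave 0 that rose and 2 that fell of 4 in edgeR, the same 2 being those at an unadjusted p under 0.05. Klc2 had 325 and 307 CPM in control mice and 235 and 228 CPM in surgery mice (log2 fold change -0.45, SE 0.06, adjusted p = 0.00557, edgeR). Klc1 had 735 and 712 CPM, then 628 and 596 CPM (log2 fold change -0.24, SE 0.06, adjusted p = 0.028, edgeR). With the trends removed these values were -0.15 for Klc2 and -0.04 for Klc1.

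Of 22 cargo adaptors and regulators, 1 rose and 6 fell (4.55% and 27.3%, beside 13.1% and 12.8% of all genes). Mapk8ip3, a scaffold that binds kinesin-1, fell from 783 and 753 CPM to 586 and 538 CPM (log2 fold change -0.45, adjusted p = 0.00633, edgeR). Plekhm2, which links lysosomes to kinesin-1, fell by 0.45 on the log2 scale (adjusted p = 0.00709, edgeR), its partner on lysosomes, the small GTPase Arl8b, rose by 0.30 (adjusted p = 0.0211), and Rhot2, a mitochondrial GTPase of the kinesin adaptor complex, fell by 0.41 (adjusted p = 0.0216). Mapk8ip1, a further scaffold of kinesin-1 cargo, fell by 0.39 (adjusted p = 0.0124, edgeR). After the trends were taken out, Arl8b turned to a log2 fold change of -0.09 (adjusted p = 0.493, edgeR), and the 4 named here that fell stood between -0.22 (Mapk8ip3) and -0.10 (Mapk8ip1).

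Of 29 genes of cytoplasmic dynein, dynactin and their adaptors, the motor of the opposite direction, 9 rose and 9 fell (31.0% each way, beside 13.1% and 12.8% of all genes). Dync1h1, the dynein heavy chain, fell from 835 and 891 CPM to 634 and 618 CPM (log2 fold change -0.46, SE 0.06, adjusted p = 0.00533, edgeR). Dctn3, Dync1i1 and Dynll2 fell by 0.48, 0.44 and 0.40 on the log2 scale. Bicd1 and Hook3, adaptors that bring cargo to dynein, rose by 0.95 (SE 0.11, adjusted p = 0.00454, edgeR) and 0.86 (SE 0.07, adjusted p = 0.00428), and Capza2 and Hook1 by 0.77 and 0.76. With the trends removed the log2 fold changes were 0.32 for Bicd1, 0.17 for Hook3, 0.20 for Hook1 and 0.0094 for Capza2, and those of Dync1h1, Dctn3, Dync1i1 and Dynll2 lay between -0.38 and -0.32.

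The list of 21 mitotic partners and proliferation genes had 15 tested members, of which 1 rose and 0 fell in edgeR (6.67% and 0%, beside 13.1% and 12.8% of all genes), with 2 at an unadjusted p under 0.05. Nusap1, a microtubule-binding protein of the spindle, had 1.57 and 1.42 CPM in control mice and 4.45 and 3.91 CPM in surgery mice (log2 fold change 1.48, SE 0.27, adjusted p = 0.0107, edgeR). Under the correction, its log2 fold change was 1.08 (adjusted p = 0.0909, edgeR). Cenpe, a kinetochore motor with the kinesin domain, stood at 1.06 (SE 0.33, adjusted p = 0.0562, edgeR), and the proliferation marker Mki67 at -0.03 (SE 0.29, adjusted p = 0.954). The list's median log2 fold change was also -0.03, with 7 of the 15 above 0 and 8 below, down to -0.57 for the mitotic kinase Plk1 (adjusted p = 0.391, edgeR). The cell cycle kinase Cdk1, too low to test, had 9 and 8 reads in control mice and 0 and 2 in surgery mice.

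**Figure D5:**
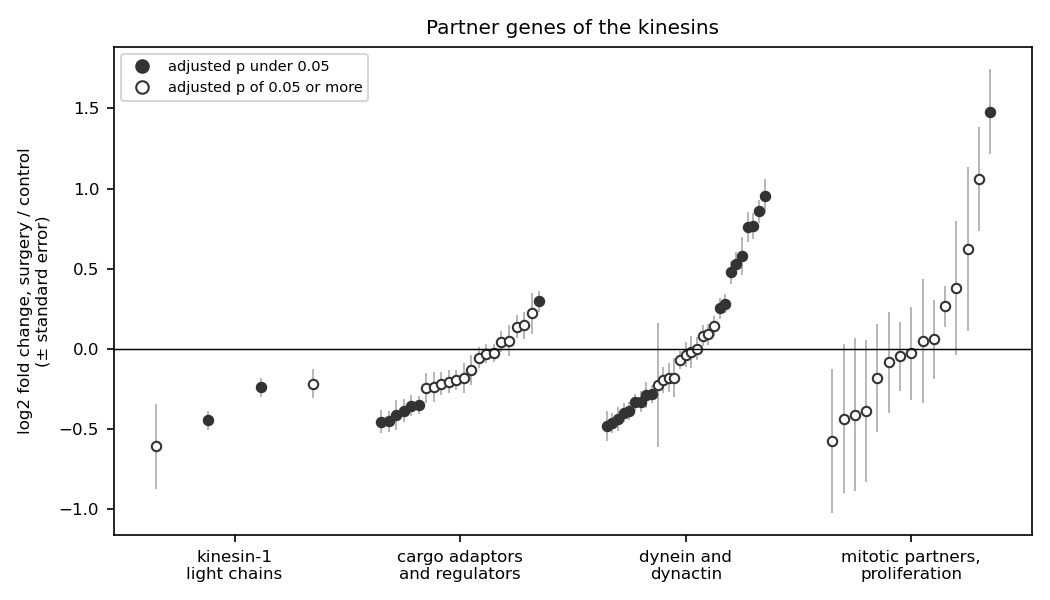
Log2 fold change of surgery over control mice for 70 tested partner genes in 4 lists, each list in order of its values, with bars of 1 standard error and 2 mice per group; filled points passed an adjusted p of 0.05 in edgeR. The dynein and dynactin list has filled points on both sides of 0 (9 and 9), the light chains and adaptors mostly below 0, and the mitotic list 1 filled point, Nusap1.

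Markers of the cells that could have changed in number were read beside these values and against the 13.1% of all genes that rose and the 12.8% that fell. Of 10 neuronal markers, 2 rose and 2 fell, and their summed level was 7413 and 7237 CPM in control mice and 7379 and 7037 CPM in surgery mice, with overlap. Of 5 markers of oligodendrocyte precursors, 3 fell, and their sum went from 325 and 320 CPM to 267 and 238 CPM. Of 6 endothelial markers, 2 rose (194 and 196 CPM, then 221 and 285 CPM), and of 7 astrocyte markers 3 rose and 1 fell (3645 and 3382 CPM, then 4180 and 3946 CPM). Mature oligodendrocyte markers overlapped between the groups at 4030 to 6335 CPM, and 0 of their 7 passed in edgeR or at an unadjusted p under 0.05. The sum of the 6 microglial markers overlapped too, at 246 to 256 CPM, and 1 of them, P2ry12, rose (log2 fold change 0.84, adjusted p = 0.00464, edgeR). Of 5 neutrophil markers tested, 1, Ltf, fell (adjusted p = 0.0395, edgeR). The sum of all 6 neutrophil markers was 17.2 and 21.1 CPM in control mice and 3.32 and 17.0 CPM in surgery mice, with surgery mouse 2 close to control mouse 1. The 13 markers of hippocampal subfields, of which 2 rose and 4 fell, summed to 1505 and 1414 CPM in control mice and 1286 and 1238 CPM in surgery mice, with none at 0 in any mouse. Lists for striatum and thalamus, the neighboring regions, gave 0 calls in edgeR, with 0 and 2 genes at an unadjusted p under 0.05. The 6 thalamus markers summed to 91.8 and 91.7 CPM in control mice and 112 and 108 CPM in surgery mice, higher in both surgery mice, and the 6 striatum markers overlapped at 69.9 to 107 CPM. With the GC and length trends removed, 0 markers of neurons, astrocytes, microglia, oligodendrocyte precursors, endothelial cells or neutrophils passed in edgeR, with 5, 3, 0, 1, 1 and 1 at an unadjusted p under 0.05, and 1 subfield marker was lower. The part of these levels in the kinesin values was not tested.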

How the data were processed

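The authors sequenced hippocampal RNA of 2 control and 2 surgery mice (150-nt paired reads, mm10) and deposited a count of reads for each gene and mouse, without normalization. The submitters' processing notes name HISAT2 2.1.0, Bowtie2 2.2.3, TopHat2 and HTSeq 0.6.0. The authors' columns of scaled mean signal, fold change, its log2 and p-values were not used. Library totals were 15763432 to 18573386 counts, and replicates differed by more than counting noise (chi-square per degree of freedom 13.2 and 8.35).

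Counts were filtered (filterByExpr, minimum count 10), TMM-normalized and tested over all genes in edgeR 4.0.16 (R 4.3.3) by the quasi-likelihood F test with Benjamini-Hochberg adjustment, condition being the only term. Alternatives were DESeq2 1.42.0, other scalings and filters, a replicate block, each mouse left out, and offsets for transcript GC content and length (a smooth per library, mgcv 1.9.3). The fits were also run on simulated counts that held no GC or length trend. That run cannot show how they behave under the trend seen here, and no value given here rests on it. Lengths, GC contents and overlaps came from GENCODE M21, in which 37 of the 41 kinesins have the coordinates of the table.

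Values were given for each kinesin past the adjusted p, for the kinesin-1 chains, the kinesin-2 subunits and Kif1a and Kif1b, for the 5 most abundant mitotic kinesins, and for up to 4 genes per partner list and direction. Kif18a, Kif20b, Kif23, Kif9, Kif21b, Cenpe, Mki67, Plk1, Cdk1, Pafah1b1 and genes named with a single value were added after their values were seen. The members and lists were chosen with earlier results of these data known. An item withheld from this text is not reported here.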

Additional observations from a re-analysis of the deposited data

How the results depend on the processing

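Under DESeq2, size factors by the RLE method and a filter at a mean of 1 CPM, the counts of kinesins that rose or fell stayed within 1.5 times those given, and no mitotic kinesin passed under any alternative run. Scaling by library totals gave 5 kinesins higher (transport 4), and turned Kif3b (0.031) and Kif1b (0.023) above 0. Removing the GC and length trends gave 0 higher and 0 lower kinesins (transport 0 and 0), 0 higher and 1 lower partner genes, 100 and 189 of all genes, and medians of -0.079 (transport) and 0.038 (mitotic). With the fold thresholds 0 kinesins (transport 0) and 0 partner genes were lower, 5 partner genes were higher, and 1158 and 386 of all genes were higher and lower. Without a filter 1315 genes were higher and 1350 lower, and at a mean of 1 CPM the mitotic median was 0.016. A replicate block gave 3 kinesins higher and 9 lower (transport 2 higher), and the block with the GC and length trends removed gave 1 higher and 2 lower (transport 2 lower), 3 partner genes higher, 756 of all genes higher and 1595 lower, and medians of -0.080 (transport) and 0.045 (mitotic). The block alone added Kif5c as higher and Kif21b and Kif13b as lower (adjusted p = 0.0445, 0.0427 and 0.0462, edgeR). With the trends removed too, Kif5b was higher and Kif1a and Kif3c lower (adjusted p = 0.00643, 0.0347 and 0.0222, edgeR). The labels do not say that the replicate numbers pair mice, and same-numbered deviations correlated at 0.22. Leaving out 1 mouse gave 2 to 10 kinesins lower, 2 to 9 transport kinesins lower, 6 to 10 partner genes higher and 11 to 19 lower (both lowest without control mouse 2), 1179 to 2010 of all genes higher and 1139 to 2010 lower, a transport median of -0.30 to -0.080, a mitotic median of 0.18 to 0.83, and log2 fold changes of -0.074 to 0.043 for Kif3b and -0.074 to 0.026 for Kif1b. The cause was not tested. At this depth the 10 mitotic kinesins tested, at 5 to 126 reads in a mouse, had standard errors of 0.25 to 0.52 on the log2 scale.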
